A study of Rattus norvegicus with 8 samples.

Results

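The hippocampus is built from subfields, each with its own principal neuron: the granule cells of the dentate gyrus and the pyramidal cells of CA3, CA2 and CA1. Granule cells send mossy fibres to CA3, CA3 pyramidal cells project to CA1, and CA2 lies between them. Each class carries genes that in situ hybridisation or sorted cells, mostly of mouse, place in that subfield, and such genes are used to read which neurons a piece of hippocampus holds. A list of 34 of these subfield marker genes was followed here: 10 of the dentate gyrus, 4 of CA3, 5 of CA2, 6 of CA1 and 9 that mark several subfields or divide them. Members were matched to probes by gene name. Of the 34, 31 had a probe on the array and 29 entered the comparison, among 18780 features tested in all.

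The 2 groups were male Sprague Dawley rats, 3 months old, given Y+I or vehicle for 7 days, with 4 animals in each group and hippocampal RNA taken 2 h after treatment. Per the series title, Y+I is the combination of yohimbine, an alpha2-adrenoceptor antagonist, and imipramine, a tricyclic antidepressant that inhibits noradrenaline and serotonin reuptake. Neither drug given alone was analysed here. Each animal had its own 1-colour Agilent array, and the labels do not say whether the hippocampus was taken whole or from which part of its length. The comparison asks how marker levels differed between the groups.

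The 8 arrays came from 1 slide scanned on 1 day. Vehicle filled row 1 of that slide and Y+I row 2, and an effect of row cannot be told apart from one of treatment. Among 58717 noncontrol spots, the share well above background was 64.4% to 74.8% for Y+I and 76.4% to 79.7% for vehicle. The 75th percentile of the processed signal was 1045 to 1971 scanner units on Y+I arrays and 1939 to 2106 on vehicle arrays. Levels below are log2 of the processed signal minus that percentile, so a level of 0 equals the percentile, and a level of one probe says nothing about that of another. The median SD between animals, over all features, was 0.239 in Y+I and 0.134 in vehicle. The arrays measure whole tissue, in which fewer cells of a type and less RNA per cell cannot be told apart.

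The tissue carried the markers of every subfield. Of the 29 tested members, 24 were well above background on all 8 arrays. The other 5 were so on only part of the Y+I arrays, Prox1, Dsp and Rfx3 on 2 and Coch and Spink8 on 3, and on all 4 vehicle arrays. These 5 passed the filter through vehicle. No probe was matched for Glis3, Map3k15 or Ociad2. Tdo2, a tryptophan-degrading enzyme of granule cells in mouse, and Iyd, an iodotyrosine deiodinase that marks CA3 in mouse, had a probe that was not well above background on any array.

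The probes of 6 members are shown because the values below turn on them. Sequences come from the deposited files and positions are on rat build rn4, and the files leave unstated whether a probe lies in coding sequence or a UTR. The Wfs1 probe (chr14:79403780-79403839, plus strand) gave the largest difference among the members. The Zbtb20 probe (chr11:58666337-58666396, minus strand) gave the only member called when 1 array was left out. The Grik4 probe (chr8:45514232-45514291, minus strand) was printed in 10 spots per array. The Prox1 probe, for the factor that defines granule cells, lies on the minus strand at chr13:106423135-106447119, a span longer than the probe itself.
Wfs1: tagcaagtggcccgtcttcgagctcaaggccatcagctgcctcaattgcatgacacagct
Zbtb20: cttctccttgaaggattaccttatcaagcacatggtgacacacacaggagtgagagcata
Grik4: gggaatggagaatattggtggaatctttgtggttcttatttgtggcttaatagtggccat
Prox1: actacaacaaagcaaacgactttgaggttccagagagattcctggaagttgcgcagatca

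C1ql2 and C1ql3 are paralogs, and their main probes are nearly alike. Capitals mark the bases that are equal when the probes are aligned, 47 of 58 (81.0%). The C1ql3 probe lies at chr17:87278012-87278071 on the minus strand, and the files place the C1ql2 probe on an unassigned chromosome. How far each transcript binds the other's probe was not tested, so the values of both genes are uncertain.
C1ql2: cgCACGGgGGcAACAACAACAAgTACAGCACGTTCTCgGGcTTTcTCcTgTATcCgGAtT
C1ql3: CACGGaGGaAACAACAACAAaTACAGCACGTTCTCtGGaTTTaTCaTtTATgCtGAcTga

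No subfield marker passed the test. Of the 29 members, 0 had an adjusted p under 0.05 in limma's moderated test with Benjamini-Hochberg adjustment over all features, against 440 of 18780 features (2.34%; 0.745% higher and 1.6% lower in Y+I). Without adjustment, 9 members had p under 0.05, 7 of them with higher and 2 with lower values in Y+I. The same was so for 15.6% of all features, 6.47% higher and 9.17% lower. By list, the 9 were 0 of 8 dentate, 1 of 3 CA3, 2 of 4 CA2, 3 of 6 CA1 and 3 of 8 several-subfield genes. The Y+I and vehicle values did not overlap in 4 of 29 members (13.8%), close to the 11.7% of all features (5.05% higher and 6.66% lower). These were Wfs1, Bok and Rgs14, higher in Y+I, and Cadps2, lower. After normexp background correction, an alternative estimate of signal near background, 2 members were called, Wfs1 and Rgs14, against 3.21% of features. Differences were above 0 in 16 members (55.2%), beside 45.9% of all features, and below 0 in 13. After normexp, 21 lay above 0 and 8 below, and the median of all features also rose. The median difference was 0.03, beside -0.02 for all features, and 0.17 after normexp, beside 0.09, and the median size without regard to sign was 0.274, beside 0.149. The 95% interval held 0 in 20 members. It lay within a 2-fold change in either direction for 22 members and within a 1.5-fold change for 10, so changes of those sizes were outside the interval only for these genes.

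**Figure D1:**
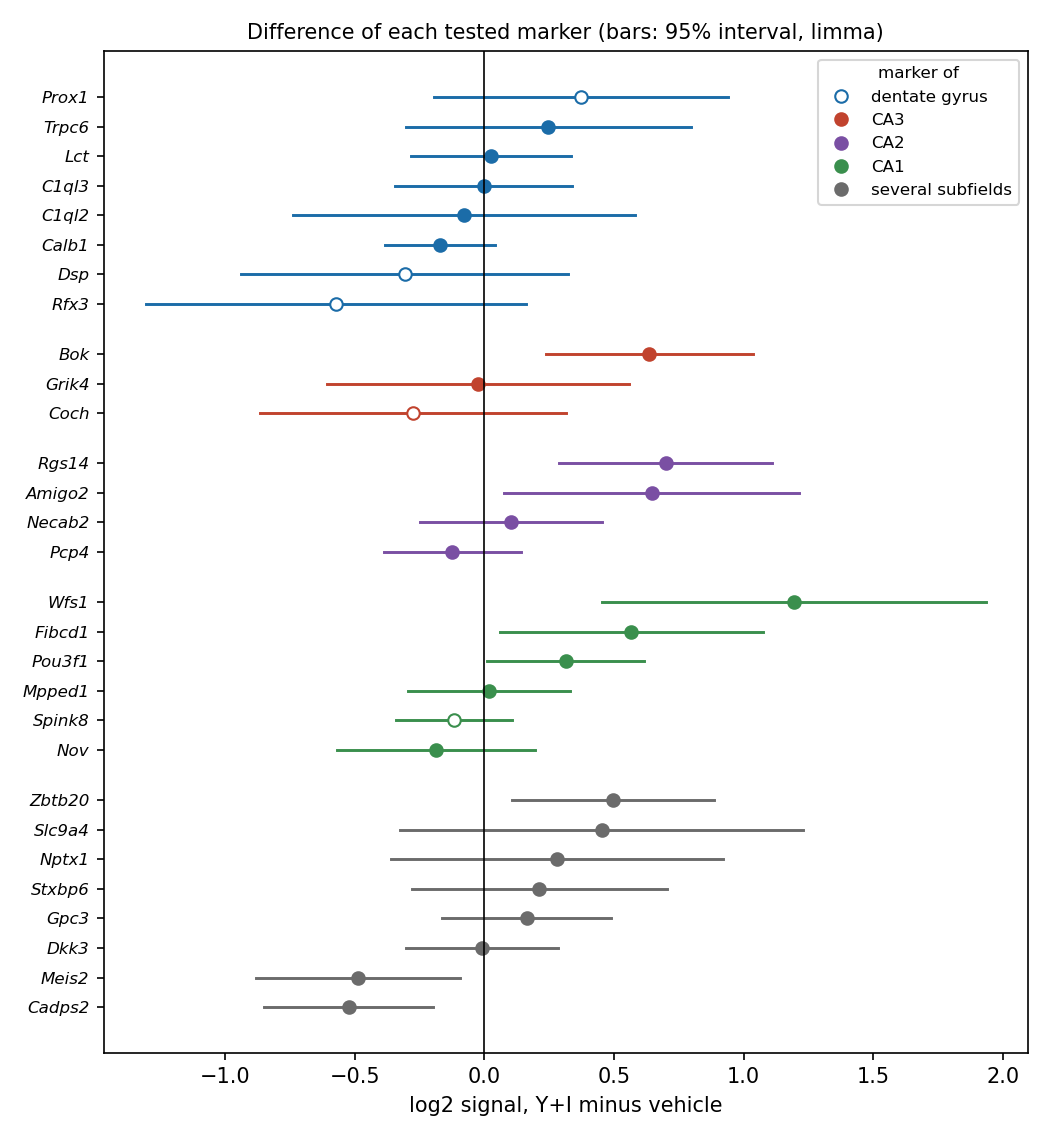
Difference in log2 signal, Y+I minus vehicle (horizontal axis), for the 29 tested markers grouped by subfield. Points are estimates, bars are 95% intervals from limma with 4 animals in each group, and open points mark the 5 genes not well above background on all 8 arrays. Estimates run from -0.57 for Rfx3 to 1.19 for Wfs1, and 20 of the 29 bars cross 0.

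Granule cell markers had no common direction. Of 8 tested dentate genes, 0 passed the test, 3 lay above 0 and 5 below, with a median difference of -0.04. Prox1, a homeobox factor that sets and keeps granule cell identity, had levels of -5.96, -6.52, -6.25 and -5.53 in Y+I animals 1 to 4, and -5.91, -6.67, -6.81 and -6.37 in vehicle animals 1 to 4. The groups overlapped, the highest value was in Y+I animal 4, and the difference was 0.37 ± 0.25 (SE; adjusted p = 0.528, limma). It was 0.03 with cyclic loess normalisation, 0.20 without Y+I animal 4 and 0.69 without Y+I animals 2 and 3. All of these values were near background.

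Calb1, the calcium buffer calbindin, is found in granule cells and also in part of the CA1 pyramidal cells. It varied least of the dentate genes in Y+I, with -1.63, -1.54, -1.48 and -1.57 in Y+I animals, and -1.53, -1.42, -1.28 and -1.31 in vehicle animals. The Y+I values lay in the lower part of the range, with an overlap only between Y+I animal 3 and vehicle animal 1, and the difference was -0.17 ± 0.09 (SE; adjusted p = 0.431, limma).

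Dsp encodes desmoplakin, a protein of desmosomes that marks granule cells in mouse. It had levels of -6.04, -7.02, -6.79 and -5.85 in Y+I animals and -6.08, -5.70, -6.24 and -6.46 in vehicle animals. Y+I animals 2 and 3 were lowest, and these 2 arrays also had the lowest shares of spots above background. Rfx3, a transcription factor of ciliary genes, had -5.27, -6.36, -5.26 and -5.80 in Y+I animals, and -5.30, -5.60, -4.31 and -5.19 in vehicle animals. Both genes had overlapping groups. The differences were -0.31 ± 0.28 for Dsp and -0.57 ± 0.32 for Rfx3 (SE; adjusted p = 0.655 and 0.444, limma), but 0.26 for Dsp and 0.03 for Rfx3 after normexp background correction, so neither gene has a settled direction.

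The other dentate genes, Lct, Trpc6, C1ql2 and C1ql3, differed between the groups by -0.08 to 0.25, and each had overlapping groups. Lct encodes lactase, Trpc6 a cation channel, and C1ql2 and C1ql3 encode secreted proteins of the C1q family that act at mossy fibre synapses in mouse. C1ql3 had 2 further probes, one with a difference of 0.11 and one near background with -0.23.

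CA3 markers were few. Of 4, 3 were tested and 0 passed, and their median difference was -0.02. Bok, a member of the Bcl-2 family that marks CA3 in mouse, had levels of 4.56, 4.78, 4.39 and 4.46 in Y+I animals and 3.51, 4.34, 3.96 and 3.82 in vehicle animals. All 4 Y+I values lay above all 4 vehicle values, and vehicle animal 2 came closest. The difference was 0.64 ± 0.18 (SE; adjusted p = 0.113, limma), and a second Bok probe gave 0.60.

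Grik4, a high-affinity kainate receptor subunit enriched in CA3, was read from 10 spots per array and had -1.28, -2.09, -1.10 and -1.81 in Y+I animals. In vehicle animals it had -2.09, -1.19, -1.44 and -1.48. Each group held a low value near -2.09, in Y+I animal 2 and vehicle animal 1, and the difference was -0.02 ± 0.26 (SE; adjusted p = 0.979, limma), whose sign turned under several settings. Coch, an extracellular matrix protein first known from the inner ear, had -4.99, -5.41, -5.65 and -4.39 in Y+I animals and -5.08, -4.84, -4.49 and -4.93 in vehicle animals. Its groups overlapped, and the difference of -0.27 ± 0.26 (SE; adjusted p = 0.672, limma) became 0.14 after normexp. A second Coch probe, also near background, gave -0.17.

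CA2 held the member with the smallest adjusted p. Of 5 CA2 genes, 4 were tested, 0 passed and 3 lay above 0, with a median difference of 0.37, or 0.21 without vehicle animal 1. Rgs14 encodes a regulator of G protein signalling that limits synaptic plasticity in CA2 neurons of mouse. Its levels were 2.25, 1.62, 2.20 and 1.92 in Y+I animals and 0.98, 1.18, 1.47 and 1.58 in vehicle animals. The groups did not overlap, but Y+I animal 2 and vehicle animal 4 were only just apart. The difference was 0.70 ± 0.18 (SE), a ratio of 1.62 in Y+I over vehicle, with an adjusted p of 0.0981 (limma). It passed the threshold after normexp (adjusted p = 0.0476), without the background filter (0.0455) and with a trended, robust variance (0.0498); over the fits that left out 1 array, its adjusted p ran from 0.0611 to 0.228.

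Amigo2, an adhesion protein enriched in CA2, had levels of -3.20, -3.52, -2.87 and -2.96 in Y+I animals and -4.48, -3.79, -3.32 and -3.54 in vehicle animals. Vehicle animal 1 was far below the rest and the groups overlapped. The difference was 0.65 ± 0.25 (SE; adjusted p = 0.251, limma), and a second probe gave 0.40. Without vehicle animal 1 the difference was 0.41. Pcp4, a regulator of calmodulin found in CA2 and in granule cells, had 0.66, 0.32, 0.59 and 0.80 in Y+I animals and 0.69, 0.80, 0.72 and 0.66 in vehicle animals. Vehicle values were close together and lay within the Y+I range, Y+I animal 2 was lowest, and the difference was -0.12 ± 0.12 (SE; adjusted p = 0.669, limma), or -0.03 without Y+I animal 2.

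Necab2, a neuronal calcium-binding protein, had levels of 0.32, -0.14, 0.25 and -0.18 in Y+I animals and -0.34, 0.10, 0.10 and -0.02 in vehicle animals. These groups overlapped, with vehicle animal 1 lowest, and the difference was 0.10 ± 0.16 (SE; adjusted p = 0.807, limma), or 0.004 without vehicle animal 1.

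CA1 gave the largest difference of any member and no call. Of 6 CA1 genes, 0 passed the test and 4 lay above 0, with a median difference of 0.16. Wfs1 encodes wolframin, a membrane protein of the endoplasmic reticulum that marks CA1 pyramidal cells. It had levels of 1.44, 0.84, 1.62 and 1.07 in Y+I animals and 0.82, 0.24, -0.83 and -0.04 in vehicle animals. The groups did not overlap, by a narrow margin between Y+I animal 2 and vehicle animal 1, and the vehicle animals spanned a wider range than the Y+I animals. The difference was 1.19 ± 0.33 (SE), a ratio of 2.29 in Y+I over vehicle, with an adjusted p of 0.112 (limma). After normexp it was 1.12 and passed the threshold at an adjusted p of 0.0498.

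Fibcd1, a transmembrane receptor of the CA1 pyramidal layer, had levels of 5.11, 5.24, 4.93 and 5.01 in Y+I animals and 3.86, 4.37, 4.94 and 4.84 in vehicle animals. The Y+I animals were close together, while vehicle animals 1 and 2 lay below vehicle animals 3 and 4, of which animal 3 reached the Y+I range. The difference was 0.57 ± 0.22 (SE; adjusted p = 0.26, limma), and a second probe gave 0.70. Without vehicle animal 1 the difference was 0.35. Pou3f1, a POU-domain transcription factor, had 0.94, 1.17, 0.94 and 1.19 in Y+I animals and 0.89, 0.69, 0.45 and 0.95 in vehicle animals. The groups overlapped only through vehicle animal 4, and the difference was 0.31 ± 0.13 (SE; adjusted p = 0.302, limma).

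Spink8, a serine protease inhibitor of the Kazal type, was read from 10 spots per array near background. Its levels were -4.93, -5.15, -5.05 and -4.84 in Y+I animals and -4.96, -4.87, -4.85 and -4.81 in vehicle animals. The groups overlapped, and the difference of -0.12 ± 0.10 (SE; adjusted p = 0.623, limma) became 0.21 after normexp. The remaining CA1 genes were Mpped1, which encodes a metallophosphoesterase domain protein, and Nov, now named Ccn3, a secreted matricellular protein. Their differences were 0.02 and -0.19, both with overlapping groups. A second Mpped1 probe gave 0.06.

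Markers of several subfields went both ways. Of 9, 8 were tested, 0 passed, 5 lay above 0 and 3 below, with a median difference of 0.19, or 0.07 without Y+I animal 4. Cadps2, which primes dense-core vesicles for release, had levels of -0.47, -0.18, -0.51 and -0.25 in Y+I animals and -0.13, 0.06, 0.39 and 0.36 in vehicle animals. It was the only member whose Y+I values all lay below the vehicle values. The difference was -0.52 ± 0.14 (SE), a ratio of 1.44 in vehicle over Y+I, with an adjusted p of 0.113 (limma).

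Zbtb20, a zinc finger factor needed for CA1 identity in mouse, had levels of -1.42, -1.98, -1.11 and -1.48 in Y+I animals and -2.09, -2.05, -1.96 and -1.87 in vehicle animals. Y+I animal 2 fell among the vehicle values and the other Y+I animals lay above them. The difference was 0.50 ± 0.17 (SE; adjusted p = 0.195, limma), and without Y+I animal 2 it was 0.66 and passed the threshold (adjusted p = 0.0433). Over all fits that left out 1 array the adjusted p of Zbtb20 ran from 0.0433 to 0.382.

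Meis2, a homeobox factor, had -3.78, -3.66, -3.82 and -3.75 in Y+I animals and -2.85, -3.75, -3.28 and -3.18 in vehicle animals. The Y+I values were close together and vehicle animal 2 reached them. The difference was -0.49 ± 0.17 (SE; adjusted p = 0.209, limma), and -0.22 after normexp. Slc9a4, a sodium/proton exchanger, had -2.79, -3.54, -2.56 and -2.93 in Y+I animals and -4.42, -3.25, -2.87 and -3.09 in vehicle animals. Vehicle animal 1 was lowest, the groups overlapped, and the difference was 0.45 ± 0.34 (SE; adjusted p = 0.582, limma). Without vehicle animal 1 it was 0.11, so that array carried most of the difference.

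Dkk3, Gpc3, Stxbp6 and Nptx1 had overlapping groups and differences of -0.01 to 0.28. They encode a secreted protein of the Dickkopf family, a glypican, a syntaxin-binding protein and a neuronal pentraxin.

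**Figure D2:**
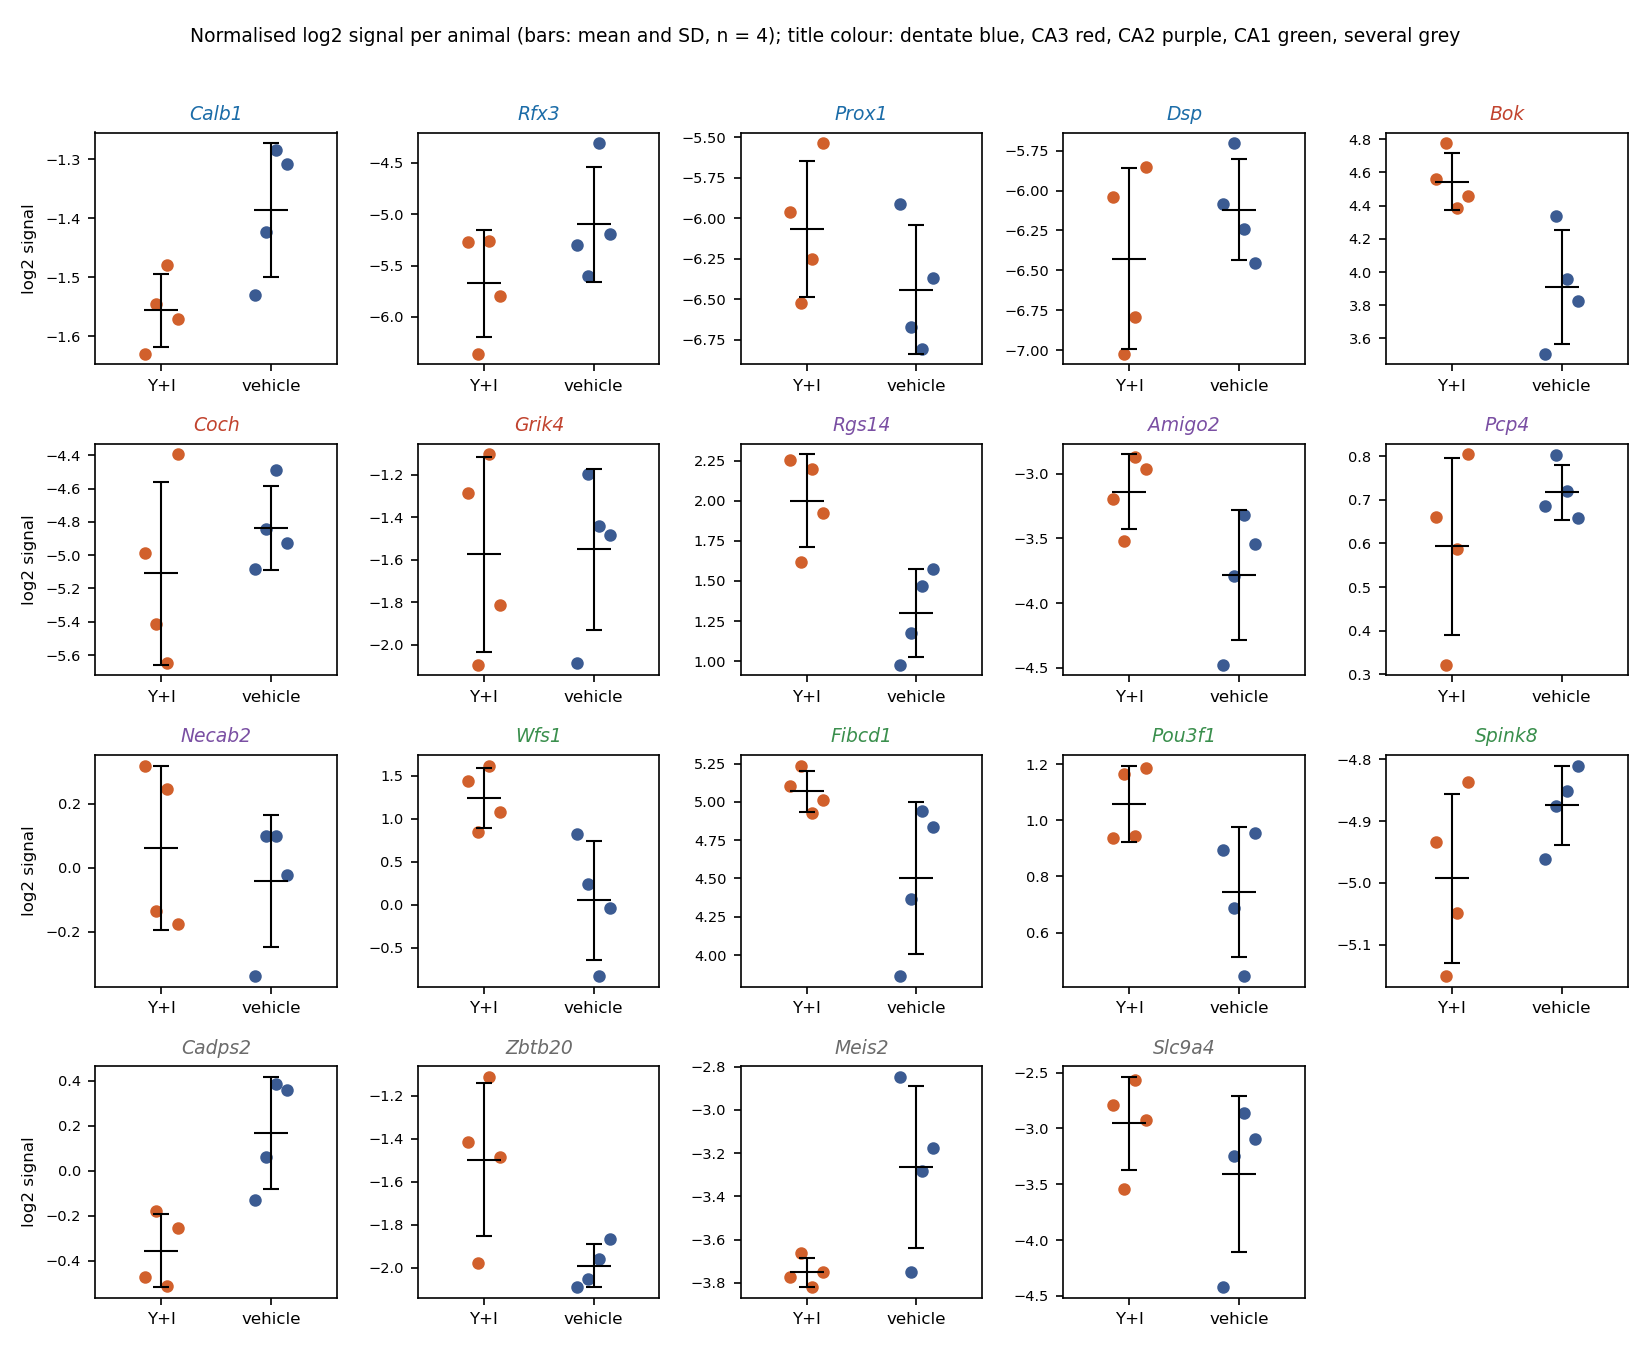
Normalised log2 signal (vertical axes, each with its own range) in the 4 Y+I and 4 vehicle animals for up to 4 markers of each subfield with the smallest p. Points are animals, with animals 1 to 4 placed left to right in each group, and bars are the mean and SD. The groups stand apart for Bok, Rgs14, Wfs1 and Cadps2 and overlap for the other 15 genes.

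Animals of 1 group differed among themselves in the same markers, a pattern looked at after the values had been seen. Among Y+I animals the median SD was 0.273 for the 29 members and 0.239 for all features, with 16 of 29 members above the median of all features. Among vehicle animals the median SD was 0.304 for the members and 0.134 for all features, with 24 of 29 members above. Ranked among all features, the members' median percentile of spread was 58.2 in Y+I and 87.6 in vehicle. The difference in spread between the groups was not tested, and Y+I arrays varied more across all features.

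**Figure D3:**
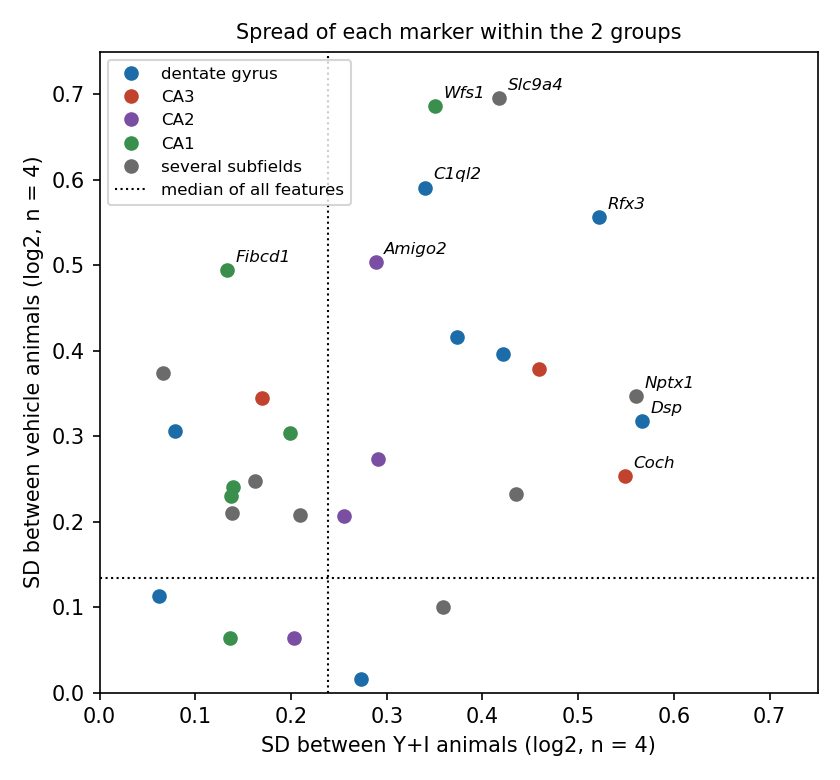
SD of log2 signal between the 4 Y+I animals (horizontal axis) and between the 4 vehicle animals (vertical axis) for the 29 tested markers, coloured by subfield. Dotted lines are the medians of all 18780 features, 0.239 and 0.134, and 24 markers lie above the horizontal line.

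Vehicle animal 1 was the highest of the 4 vehicle animals for 4 of 8 dentate genes and the lowest for 1, Calb1. It was the lowest for 3 of 3 CA3 genes, 3 of 4 CA2 genes and 4 of 6 CA1 genes, and the highest for 1 of these, Wfs1. Examples picked after their values were seen follow. C1ql2 had 2.42, 1.72, 1.16 and 1.18 in vehicle animals 1 to 4, and C1ql3 had 3.49, 3.28, 2.92 and 2.84. Trpc6 had -0.33, -0.66, -0.95 and -1.30. These 3 dentate genes were highest in vehicle animal 1 and next in vehicle animal 2, as was a second C1ql3 probe, with 3.16, 3.06, 2.91 and 2.81. The other dentate genes had other orders: Prox1 was highest in animal 1 and lowest in animal 3, Calb1, Rfx3 and Lct were highest in animal 3, and Dsp was highest in animal 2. Fibcd1 was lowest in those same animals, with 3.86 and 4.37. Mpped1 had 2.97, 2.97, 3.33 and 3.43 in vehicle animals, and Nov had 0.85, 1.38, 1.47 and 1.51. Wfs1 had the opposite order in vehicle animals 1 and 2, with 0.82 and 0.24 above the other vehicle animals.

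Vehicle animal 1 held the lowest of the 8 values for 8 of 29 members, beside 12.3% of all features. Relative to the mean over all 8 arrays, its dentate genes averaged 0.26 higher, and its CA3, CA2 and CA1 genes averaged -0.45, -0.50 and -0.23. Y+I animal 4 had dentate, CA3, CA2 and CA1 averages of 0.23, 0.19, 0.18 and 0.18, and in Y+I animal 2 they were -0.21, -0.14, -0.14 and 0.10. The CA1 averages were 0.10 to 0.20 in Y+I animals and -0.23 to 0.01 in vehicle animals and did not overlap. Those of the dentate, CA3, CA2 and several-subfield genes overlapped. Wfs1 weighed heavily in the CA1 averages, with a difference of 1.19 beside a CA1 median of 0.16. Averaged over the other CA1 genes, the groups overlap, with vehicle animal 4 highest. Vehicle animal 4 held the highest of the 8 values for 3 of 6 CA1 genes, beside 5.95% of all features. Y+I animals 2, 3 and 4 held it for 1 CA1 gene each.

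**Figure D4:**
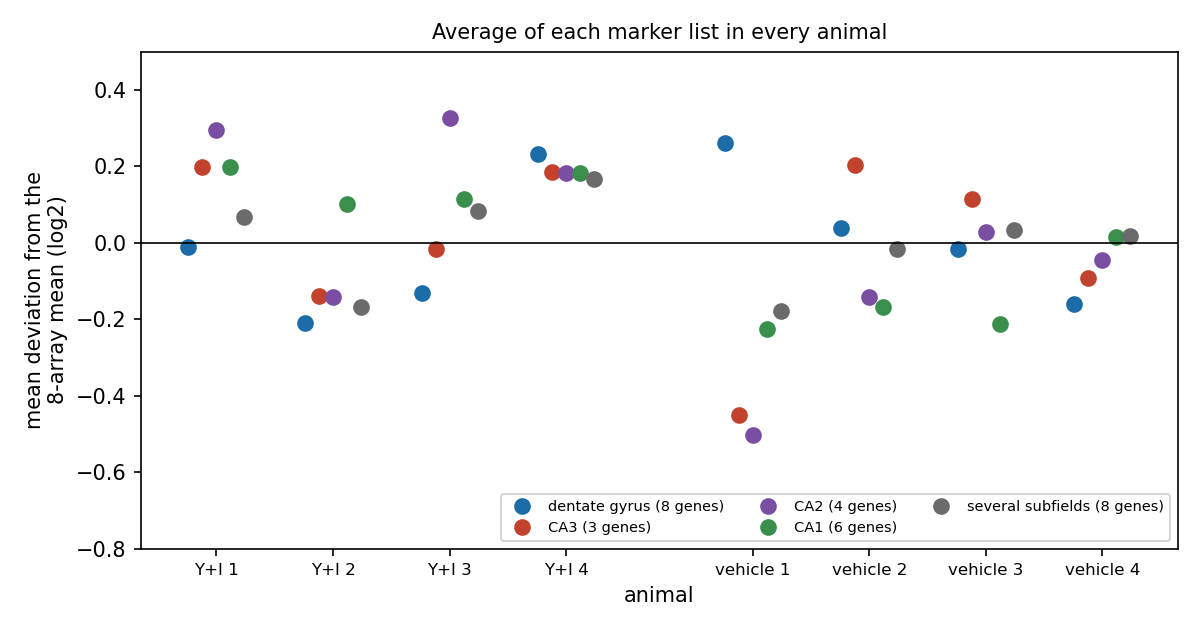
Mean deviation of each marker list from its 8-array mean (vertical axis, log2 units) in each Y+I animal and each vehicle animal (horizontal axis). Points are averages over the tested genes of a list, and no test is attached. In vehicle animal 1 the dentate point stands at 0.26 and the CA2 point at -0.50.

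Repeated spots, also looked at after the values had been seen, show how much of the variation arose within an array. For 25 members with at least 2 spots, the median SD between spots of an array was 0.0635, and the median SD between animals of a group was 0.272. The SD between animals was the larger in 23 of 25, the exceptions being Spink8 and Stxbp6. For Wfs1 it was 15.2 times the SD between spots. Spots of 1 array share a labelling reaction, so steps before hybridisation are part of the SD between animals.

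**Figure D5:**
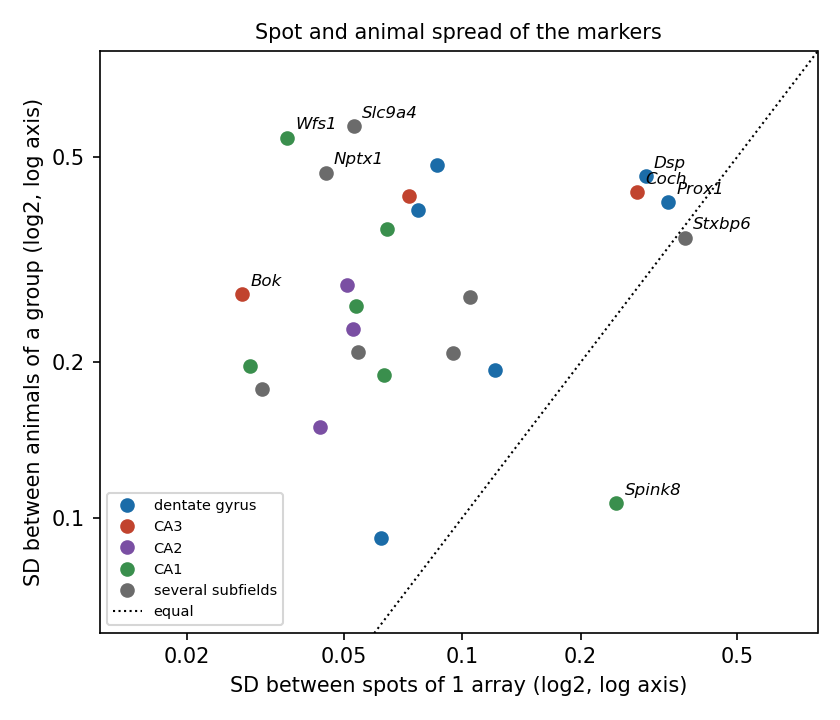
SD between spots of 1 array (horizontal log axis) and pooled SD between animals of a group (vertical log axis), in log2 units, for 25 markers with at least 2 spots. The dotted line marks equal values, and 23 markers lie above it.

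Other genes tied to the subfields were read from the same fit. They were listed with results of these data known, so their counts stand as description. The share of all features called, 2.34%, is to be read beside the counts of these lists. Of 14 further subfield genes tested, 2 rose and 1 fell. Only 8 of the 14 were well above background on all 8 arrays, and the others passed the filter through vehicle. Nr3c2, the mineralocorticoid receptor, had 1.86, 2.04, 1.94 and 2.16 in Y+I animals and 1.22, 1.47, 1.46 and 1.38 in vehicle animals. No values overlapped, and the difference was 0.62 ± 0.11 (SE; adjusted p = 0.0246, limma). Fgf2, a growth factor, rose by 0.51 ± 0.10 (SE; adjusted p = 0.0406, limma). Lypd1, whose product binds nicotinic receptors, had 1.05, -0.24, 1.13 and 0.68 in Y+I animals and 2.31, 2.24, 2.38 and 2.33 in vehicle animals. It fell by 1.66 on the log2 scale (SE 0.27; adjusted p = 0.0213, limma), with all Y+I values below all vehicle values. The assignment of Lypd1 to hippocampal subfields is loose, since other brain regions also express it.

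Of 3 mossy cell genes tested, 1 fell. Drd2, the D2 dopamine receptor, which hilar mossy cells of mouse and the striatum both express, fell by 0.60 on the log2 scale (SE 0.11; adjusted p = 0.0278, limma). Calb2, calretinin, was listed as a mossy cell marker of mouse, and whether it marks these cells in rat was not tested. It had a difference of -0.83 ± 0.18 (SE; adjusted p = 0.057, limma). The third, Ajap1, a membrane protein of cell junctions, went the other way and did not pass, with a difference of 0.45 ± 0.13 (SE; adjusted p = 0.139, limma) and groups that did not overlap. Of 2 subiculum genes, Fn1 and Nts, 0 passed and 1 had an unadjusted p under 0.05 in limma, with differences of 0.30 and 0.40.

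Of 8 general excitatory neuron genes, 1 rose. Camk2a, the kinase subunit of forebrain excitatory synapses, had 0.36, 0.54, 0.36 and 0.77 in Y+I animals, and -0.57, -0.38, -0.02 and -0.12 in vehicle animals. The groups did not overlap, and the difference was 0.78 ± 0.15 (SE; adjusted p = 0.0365, limma). Neurod6, a transcription factor of pyramidal neurons, had a difference of 0.59 ± 0.15 (SE; adjusted p = 0.0962, limma). Of 8 genes used by all neurons, 0 passed and 0 had an unadjusted p under 0.05 in limma, with a median difference of 0.04.

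Leaving out 1 array ended several of these calls. Nr3c2 passed in 4 of 8 such fits, Lypd1 in 3, Drd2 in 2, Fgf2 in 1 and Camk2a in 0, with adjusted p of up to 0.0907, 0.0722, 0.0841, 0.12 and 0.105.

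Markers of other cells gave the following levels, summed over the tested genes of each list on the linear scale, in units of the array's 75th percentile. The 9 interneuron genes summed to 89.15 to 114.3 in Y+I and 105.6 to 132.5 in vehicle animals. The 11 genes of thalamus, habenula and striatum summed to 8.31 to 10.09 in Y+I and 7.48 to 9.74 in vehicle. The 7 endothelial genes summed to 12.25 to 14.16 in Y+I and 16.18 to 16.5 in vehicle, and the 7 genes of meninges and fibroblasts to 7.91 to 10.55 in Y+I and 9.65 to 14.04 in vehicle. The 8 oligodendrocyte genes summed to 164.6 to 212.2 in Y+I and 166.5 to 183.8 in vehicle. The 7 neocortex genes summed to 0.816 to 1.29 in Y+I and 1.11 to 1.6 in vehicle, the 7 astrocyte genes to 72.46 to 90.14 in Y+I and 73.98 to 81.29 in vehicle, and the 8 microglia genes to 14.23 to 20.45 in Y+I and 15.97 to 18.1 in vehicle. Of 5 choroid plexus genes 3 were not kept, and the other 2 summed to 0.287 to 1.42 in Y+I and 0.176 to 4.5 in vehicle. The endothelial sums did not overlap between the groups, and those of the other lists did. A sum is carried by the brightest probes, whereas the mean deviation from the 8-array mean gives each gene the same weight. That mean was -0.24 to -0.17 in Y+I and 0.13 to 0.40 in vehicle for thalamus, habenula and striatum, and -0.48 to -0.18 in Y+I and 0.22 to 0.37 in vehicle for meninges and fibroblasts. For neocortex it was -0.41 to -0.12 in Y+I and 0.10 to 0.37 in vehicle, and for endothelium -0.31 to 0.01 in Y+I and 0.09 to 0.21 in vehicle. The means of these 4 lists did not overlap between the groups and were lower in Y+I. Those of the interneuron, oligodendrocyte, astrocyte, microglia and choroid plexus lists overlapped. In the 4 separated lists, some genes were near background in Y+I and passed the filter through vehicle. Well above background on all 8 arrays were 9 of 11 genes for thalamus, habenula and striatum and 6 of 7 for meninges and fibroblasts. The counts were 4 of 7 for neocortex and 6 of 7 for endothelium. In that order, median differences were -0.49, -0.62, -0.30 and -0.15, but -0.09, -0.49, -0.18 and 0.03 after normexp. In neocortex and endothelium 1 gene weighed heavily, and the groups overlap when the list is averaged over its other genes. Nxph4, well above background on no Y+I array, differed by -1.94, beside a neocortex median of -0.30. Kdr differed by -1.035, beside an endothelial median of -0.15. In thalamus, habenula and striatum, Slc17a6 differed by -1.17 and Drd1, well above background on no Y+I array, by -1.16. The part of these other cells in the values of the subfield markers was not tested.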

How the data were processed

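Hippocampal RNA of 8 rats was labelled with Cy3 and hybridised to Agilent 1-colour arrays, per the labels' protocols. The deposited scanner files give spot intensity from Agilent Feature Extraction 10.5.1.1, per the file headers. The value table the authors deposited was log2, as its slope against the scanner values shows. Its centring is not stated, and it served as an alternative.

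Main values were log2 processed intensity minus each array's 75th percentile over noncontrol spots. Non-uniform and population outlier spots were dropped and spots of a probe averaged. A probe was kept if at least 50% of its spots were well above background on each of the 4 arrays of either group, and if each group had 3 or more values. The processed signal is a surrogate near background. The brightest kept probe stood for a gene, with symbols updated through the RefSeq table of assembly GRCr8. Groups, taken from the titles, were compared with limma 3.58.1 (lmFit, then eBayes; R 4.3.3). Two-sided p-values were adjusted over 18780 features by Benjamini-Hochberg. Values in every array are given for up to 4 members per list, those of smallest p. Neighbouring and other-cell genes are named where they passed, and neighbours also if among the 2 smallest p of a list. Members and lists were chosen with earlier results of these data known. Animal numbers did not pair the samples. The procedure was tested on simulated data that gave both groups the same spread, unlike the groups here. Precision is limited by the number of arrays. Alternatives covered background correction (normexp, offset 50), normalization, filter, variance model, block and omitted arrays.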

Additional observations from a re-analysis of the deposited data

Results flagged for a closer look

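In 96 groups of 4 animals over 48 genes, 2 groups held 1 animal far from the other 3, by Dixon's 95% criterion. Chance flags about 1 in 20 such groups. Syt1, a synaptic vesicle calcium sensor, was at -3.09 in vehicle animal 1, with the nearest vehicle animal at -2.67. Slc17a6, the vesicular glutamate transporter of thalamus and habenula, was at -0.17 in Y+I animal 4, with the nearest Y+I animal at -0.85. No subfield marker was singled out in this way.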

How the results depend on the processing

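The number of subfield markers called was 0 in the reported fit and under 9 alternatives: quantile, median and cyclic loess normalisation, the value table, the filter on all 8 arrays, the mean of a gene's probes, outlier spots kept, array weights, and the replicate block for animal number. It was also 0 without Y+I animals 2 and 3. It was 2 with normexp (Wfs1 and Rgs14), 2 without the background filter (Rgs14, and Iyd, whose probe was above background on no array), 1 with a trended, robust variance and 1 at an adjusted p under 0.1 (Rgs14 in both), and 0 to 1 when 1 array was left out. Features called numbered 440 in the reported fit, 714 with cyclic loess, 3879 without the filter, 144 with the replicate block, 784 at an adjusted p under 0.1, 165 without Y+I animals 2 and 3, and 121 to 358 with 1 array left out. Higher and lower calls numbered 140 and 300, but 400 and 202 with normexp, 3353 and 526 without the filter, and 161 and 211 with the filter on all 8 arrays. The same-numbered animals' deviations correlated at -0.111 to 0.0462. The CA3 median was 0.31 with the filter on all 8 arrays and without a filter, where the genes tested in the list differ, and the CA1 median was 0.31 with the filter on all 8 arrays, which drops Spink8. Markers whose groups did not overlap numbered 7 with normexp (14.6% of all features were apart) and 9 without Y+I animals 2 and 3 (27.1%), and 4 to 7 of 29 when 1 array was left out (13.7% to 18.1%), counts added after seeing the data. Signs turned under normexp for Rfx3 (0.031), Dsp (0.26), Coch (0.14), Grik4 (0.0265) and Spink8 (0.21). Without Y+I animals 2 and 3 they turned for Dsp (0.17), Coch (0.14), Grik4 (0.0018) and Pcp4 (0.0159). Grik4 also turned with quantile normalisation (0.0138) and array weights (0.0754), and ran from -0.20 to 0.15 with 1 array left out. Spink8 turned with cyclic loess (0.009) and in the value table (0.16). The cause was not tested.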

Other observations

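Among the lists of other cells, 8 genes passed the test, 6 lower and 2 higher in Y+I, beside 2.34% of all features. Kdr, the main endothelial receptor for vascular endothelial growth factor, had 0.13, 0.36, 0.74 and 0.44 in Y+I animals and 1.46, 1.36, 1.45 and 1.54 in vehicle animals. It fell by 1.03 on the log2 scale (SE 0.13; adjusted p = 0.00931, limma), and was the 1 gene of 7 endothelial genes that passed. Of 7 genes of meninges and fibroblasts, 3 fell. The differences were -1.02 for Slc6a13, a GABA transporter, -1.03 for the collagen gene Col1a1 and -0.73 for Igfbp2, an insulin-like growth factor binding protein (adjusted p = 0.0105, 0.0135 and 0.0383, limma). After normexp these differences were -0.49, -0.82 and -0.70, and all 3 genes passed, but the size of the Slc6a13 fall depended on the background correction. Of 11 tested genes of thalamus, habenula and striatum, 1 rose and 1 fell. Slc17a6 fell by 1.17 on the log2 scale (adjusted p = 0.029, limma), and Tac2, named Tac3 in the RefSeq table, rose by 0.81 (adjusted p = 0.0254, limma). Aspa, aspartoacylase of oligodendrocytes, rose by 0.72 (adjusted p = 0.0288, limma), as 1 of 8 oligodendrocyte genes. Nxph4, listed for neocortex, was well above background on no Y+I array and on all 4 vehicle arrays, so it passed the filter through vehicle. Its difference was -1.94 (adjusted p = 0.0054, limma), but normexp gave -0.18 (adjusted p = 0.458, limma). Its Y+I signal was not separated from background, so the size of its fall is not settled. With 1 array left out, Kdr, Slc6a13, Col1a1 and Nxph4 passed in 8 of 8 fits. Tac2 passed in 4, Aspa in 3, Slc17a6 in 2 and Igfbp2 in 1, with adjusted p of up to 0.0924, 0.0995, 0.0965 and 0.11 (limma). Of 9 interneuron, 7 astrocyte, 8 microglia and 2 tested choroid plexus genes, 0 passed in limma. Among them 4, 1, 2 and 1 had an unadjusted p under 0.05 in limma, beside 15.6% of all features. The choroid plexus gene was higher in Y+I and the others were lower. The 4 interneuron genes, Gad1, Slc32a1, Sst and Vip, had groups that did not overlap, beside 11.7% of all features. Several of these genes were known to differ when the lists were drawn up, so the counts stand as description.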
